A study of Mus musculus with 12 samples.

Results

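The genes described here are the proteasome genes of the mouse, chosen as all gene symbols that begin with Psma, Psmb, Psmc, Psmd, Psme, Psmf or Psmg followed by a digit. There were 50 of them among the 21851 genes listed for every library. They comprise 5 immunoproteasome genes (Psmb8, Psmb9, Psmb10, Psme1 and Psme2) and 45 others, of which 32 encode subunits of the 20S core and the 19S cap outside the immunoproteasome. The symbol rule also took in Psmc3ip, which encodes a meiotic recombination factor and not a proteasome subunit.

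RNA of cells washed from the peritoneal cavity of C57BL/6J mice was sequenced in 12 libraries, to ask how a lack of lactoferrin, a protein that binds iron in secretions and in neutrophil granules, alters gene expression in acute inflammation. The 4 groups of 3 libraries were lactoferrin knockout mice injected into the peritoneum with LPS (KO LPS), wild-type mice given LPS (WT LPS), knockout mice given PBS (KO PBS) and wild-type mice given PBS (WT PBS). LPS is lipopolysaccharide, a component of the outer membrane of Gram-negative bacteria, and PBS is the saline vehicle. The sources used here give no dose, time of collection, age or sex, no description of the knockout allele and no number of mice per library.

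The proteasome is the protease complex that degrades proteins marked with ubiquitin. Its barrel-shaped 20S core is built of alpha and beta rings, and the beta subunits Psmb5, Psmb6 and Psmb7 carry the proteolytic sites. Under interferon these are exchanged for Psmb8, Psmb9 and Psmb10 in newly made cores, which gives the immunoproteasome, and the cap made of Psme1 and Psme2 is induced with them. The peptides so produced are loaded on MHC class I molecules, and macrophages and other immune cells hold part of their proteasomes in this form at rest.

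Promoter windows are printed for the 7 genes of the catalytic exchange and the interferon-induced cap that had one (all but Psmb7), and the letters of known response elements were looked up in them. The sequences are from RefSeq on build GRCm38.p6, run from 250 bases before to 50 bases after the annotated start, and are given on the strand of the gene. Where RefSeq lists several starts for a gene, only the first listed was used. The windows of Psmb8, Psmb9 and Psme1 lie inside the gene as GENCODE bounds it. For these genes the bases before the outer GENCODE start were not searched. Capitals mark a match, on either strand, to an ISRE core (GAAA, 2 bases of any kind and GAAA, bound by interferon regulatory factors), a GAS element (TTCNNNGAA, an element of interferon gamma response), the consensus named NF-kB, or an ARE (TGACNNNGC, bound by Nfe2l2 and relatives). Psmb8 lies at chr17:34197945-34198244 on the plus strand, Psmb9 at chr17:34187281-34187580 on the minus strand, Psmb10 at chr8:105938343-105938642 on the minus strand, Psme1 at chr14:55578244-55578543 on the plus strand, Psme2 at chr14:55591052-55591351 on the minus strand, Psmb5 at chr14:54617946-54618245 on the minus strand and Psmb6 at chr11:70525107-70525406 on the plus strand.
Psmb8: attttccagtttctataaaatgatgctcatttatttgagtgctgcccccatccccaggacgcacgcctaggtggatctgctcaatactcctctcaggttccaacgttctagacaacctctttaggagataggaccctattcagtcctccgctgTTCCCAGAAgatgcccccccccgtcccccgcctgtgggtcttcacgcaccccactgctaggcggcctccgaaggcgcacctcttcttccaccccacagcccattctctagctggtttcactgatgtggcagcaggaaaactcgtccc
Psmb9: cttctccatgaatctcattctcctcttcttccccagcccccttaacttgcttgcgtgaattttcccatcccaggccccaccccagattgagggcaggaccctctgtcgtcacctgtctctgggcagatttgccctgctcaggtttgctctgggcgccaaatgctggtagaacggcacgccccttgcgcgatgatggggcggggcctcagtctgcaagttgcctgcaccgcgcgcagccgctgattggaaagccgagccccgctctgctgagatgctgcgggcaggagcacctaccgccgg
Psmb10: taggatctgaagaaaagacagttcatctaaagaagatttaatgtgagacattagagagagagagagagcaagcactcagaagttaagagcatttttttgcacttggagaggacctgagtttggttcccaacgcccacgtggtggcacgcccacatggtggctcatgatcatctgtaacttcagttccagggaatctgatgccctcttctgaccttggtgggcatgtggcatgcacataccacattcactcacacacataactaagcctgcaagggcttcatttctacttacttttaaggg
Psme1: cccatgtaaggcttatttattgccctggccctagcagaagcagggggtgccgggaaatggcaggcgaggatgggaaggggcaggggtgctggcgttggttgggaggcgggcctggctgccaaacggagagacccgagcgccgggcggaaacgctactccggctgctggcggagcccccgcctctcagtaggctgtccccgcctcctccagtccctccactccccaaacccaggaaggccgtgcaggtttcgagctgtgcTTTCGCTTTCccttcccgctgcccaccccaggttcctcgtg
Psme2: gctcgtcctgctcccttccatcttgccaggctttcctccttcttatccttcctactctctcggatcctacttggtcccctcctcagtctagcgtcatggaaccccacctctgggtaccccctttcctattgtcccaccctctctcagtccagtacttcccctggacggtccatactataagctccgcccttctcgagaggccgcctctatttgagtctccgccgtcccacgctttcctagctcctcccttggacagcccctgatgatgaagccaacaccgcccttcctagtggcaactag
Psmb5: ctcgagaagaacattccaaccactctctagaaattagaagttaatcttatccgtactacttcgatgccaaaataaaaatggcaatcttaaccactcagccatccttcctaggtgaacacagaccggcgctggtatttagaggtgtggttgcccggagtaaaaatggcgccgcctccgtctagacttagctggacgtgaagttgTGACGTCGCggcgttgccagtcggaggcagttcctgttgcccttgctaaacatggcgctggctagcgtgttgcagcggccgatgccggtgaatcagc
Psmb6: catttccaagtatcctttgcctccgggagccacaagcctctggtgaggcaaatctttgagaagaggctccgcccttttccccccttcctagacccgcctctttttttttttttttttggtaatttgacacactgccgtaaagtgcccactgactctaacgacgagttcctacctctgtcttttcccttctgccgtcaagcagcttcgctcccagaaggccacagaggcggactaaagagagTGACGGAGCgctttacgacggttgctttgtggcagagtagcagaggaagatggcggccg
The GAS match of Psmb8 begins 97 bases before the start, the ISRE match of Psme1 lies 9 bases after it, and the ARE matches begin 47 bases before it in Psmb5 and 9 bases before it in Psmb6. The windows of Psmb9, Psmb10 and Psme2 held none of the 4 patterns, which says only that these letters are not in them.

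A window was at hand for 42 of the 50 members. Members were counted on 1 window each, while the shares over all windows may include several windows of the same gene. The ISRE core was found in 5 of them (Psmb3, Psmd4, Psmd9, Psme1 and Psmg4), and in 3.44% of all 32851 windows of this length. The GAS pattern was found in 3 (Psmb8, Psmd2 and Psmg1) against 8.30% of all windows, and the NF-kB consensus in 1 (Psmd12) against 4.51%. The ARE pattern was found in 6 (Psmb5, Psmb6, Psmc6, Psmd12, Psmd9 and Psme4) against 12.4% of all windows. These patterns are short, matches of different patterns may overlap, and a match is not a shown binding site.

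The values were taken as FPKM, fragments scaled by transcript length and by the mapped fragments of the library. Their unit is not stated, so comparisons of levels between genes rest on this reading. Read numbers were not given, so the counting error of a value is unknown. Summed FPKM was 343874 to 388129 per library, and 13921 to 14574 genes were above 0. The Ltf transcript, which encodes lactoferrin, was at 0.117, 0.0832 and 0.0699 FPKM in KO LPS, against 0.176, 1.33 and 0.275 FPKM in WT LPS, and at 0.183, 0.258 and 0.212 FPKM in KO PBS, against 1.89, 1.23 and 1.16 FPKM in WT PBS. Every knockout library thus lay below every wild-type library of its treatment. WT PBS replicate 3 resembled its group less than other libraries did, with a Spearman correlation over genes of 0.949 and 0.934 with replicates 1 and 2, while no other pair within a group was below 0.973. Erythroid transcripts (6 genes summed) reached 1886 FPKM in KO LPS replicate 1 and 2225 FPKM in WT LPS replicate 2, and 4.46 to 330 FPKM in the other 10 libraries. Counts of called genes are therefore given also without these libraries.

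**Figure D1:**
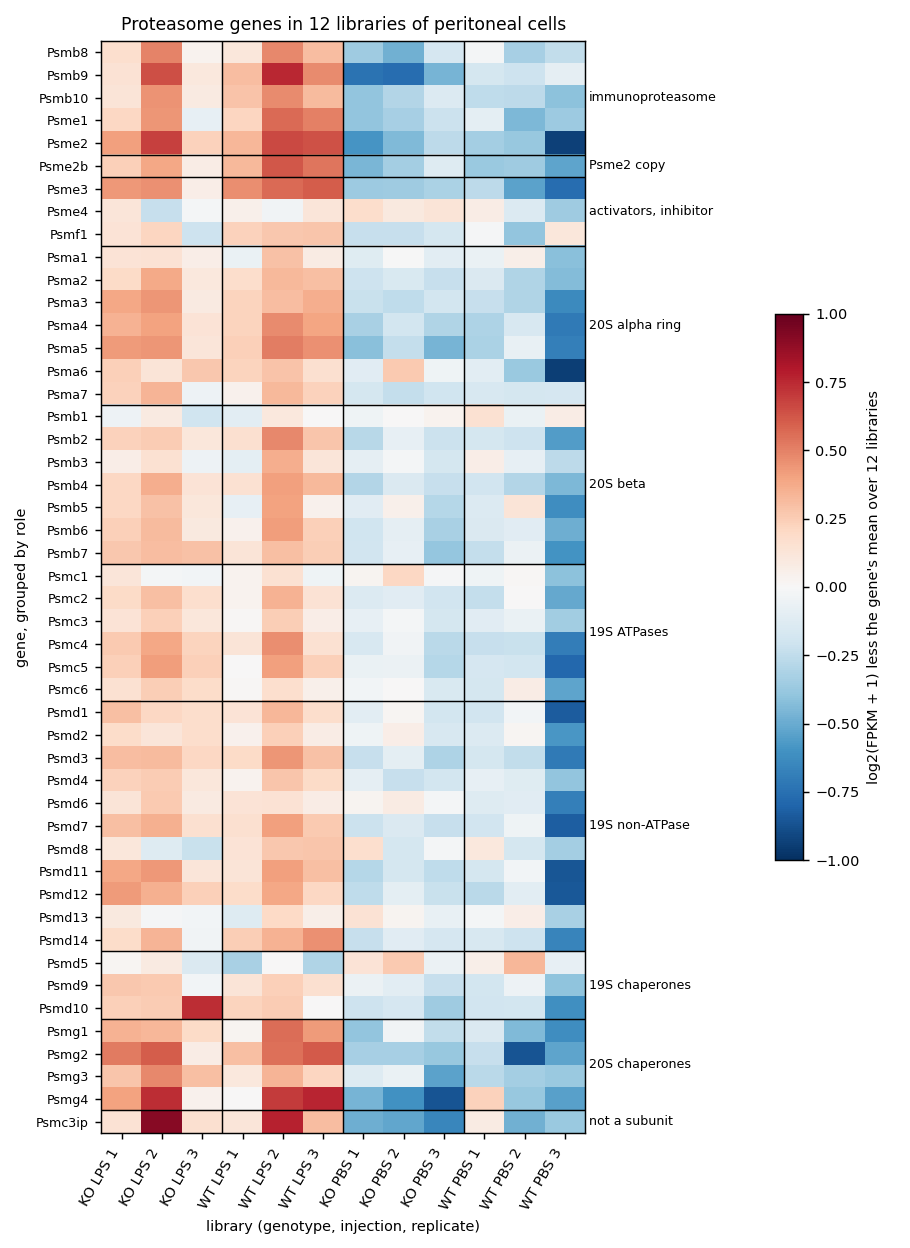
Level of each of the 48 tested members in each of the 12 libraries, as log2(FPKM + 1) less the member's mean over the libraries (colour scale), with members in rows grouped by role and libraries in columns grouped as KO LPS, WT LPS, KO PBS and WT PBS. Most rows are above their mean in the 6 LPS libraries, and WT PBS replicate 3 is the lowest of the 12 libraries in 37 of 48 rows.

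Nearly all proteasome genes were expressed in these cells. Together the members held 0.95% ± 0.0680 of the summed FPKM in KO LPS, 1.03% ± 0.0692 in WT LPS, 0.791% ± 0.0200 in KO PBS and 0.725% ± 0.115 in WT PBS (SD, n = 3 each). Of the 50 members, 48 reached a mean of 1 FPKM over the 12 libraries and were tested, and 47 of these did so in every group. The exception was Psmc3ip, which was below 1 FPKM in both PBS groups. Psmb11, the thymic counterpart of Psmb5 that is made in cortical epithelium, was listed at 0 in all 12 libraries. Psma8, the alpha subunit of the testis, was at 0.201 to 0.954 FPKM and was not tested.

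LPS raised a large share of the proteasome genes in both genotypes, and no member fell. In knockout mice 31 of 48 tested members rose, where 19.9% of the 9841 genes tested rose and 33.3% fell (limma, adjusted p under 0.05). In wild-type mice 38 of 48 rose, where 24.8% of all genes rose and 37.4% fell. The median log2 fold change of the members was 0.43 in the knockout and 0.56 in wild type, against -0.12 and -0.11 over all genes tested. In the knockout the 2 groups did not overlap for 39 members, all higher under LPS, where 24.6% of all genes had this pattern. In wild type they did not overlap for 38 members, all higher, against 27.2% of all genes.

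All 31 members that rose in the knockout also rose in wild type, which is 100% of the knockout calls and 81.6% of the wild-type calls. The matching overlap over all genes tested was not counted, so this overlap is not read as particular to the members. The LPS response in the knockout and that in wild type have no library in common. Both come from 1 fit with a shared estimate of each gene's spread, so their calls are not independent. The knockout call of Psmd9, for example, was lost without WT LPS replicate 1 (limma, adjusted p = 0.0545). A further 7 members passed the threshold in wild type: Psma6, Psmc3, Psmd1, Psmd6, Psmd8, Psmd14 and Psmf1. In neither genotype was the threshold passed by Psma1, Psmb1, Psmb3, Psmb5, Psmc1, Psmc6, Psmd2, Psmd5, Psmd13 or Psme4. The test of the difference between the genotypes is given further on. The counts rested in part on single libraries, since the knockout count was 20 without KO LPS replicate 2, 20 without KO PBS replicate 1, and 19 without the 2 libraries rich in erythroid RNA. Without those 2 libraries the wild-type count was 24, of which 23 were higher and 1 lower, and without WT PBS replicate 3 it was 34, of which 33 were higher and 1 lower. The lower member was Psmd5 in both cases. Another scaling of the libraries, by the median of ratios to the mean library, put the median of all genes at -0.003 in the knockout and -0.006 in wild type. It gave 2659 genes higher and 2600 lower in the knockout, against 1958 and 3277 with the values as deposited, and 3054 higher and 3124 lower in wild type, against 2443 and 3680. Under that scaling 36 members rose in the knockout and 44 in wild type.

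**Figure D2:**
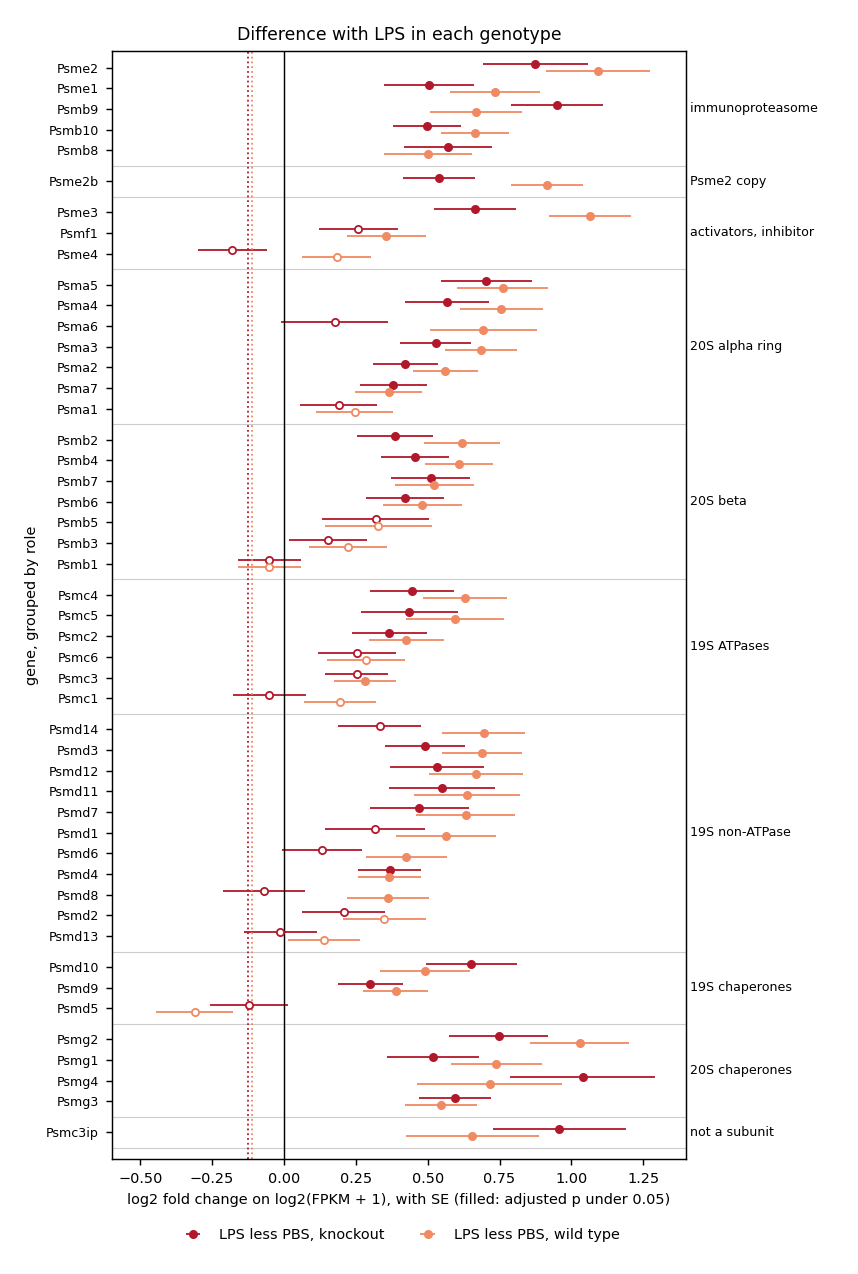
Log2 fold change of LPS over PBS for each of the 48 tested members, with its standard error (bars), in knockout and in wild-type mice, grouped by role, and filled where the adjusted p was under 0.05. Dotted lines mark the median of all genes tested, -0.12 in the knockout and -0.11 in wild type. In the knockout 42 of 48 points and in wild type 46 of 48 lie right of 0, the 5 immunoproteasome genes and the 4 Psmg chaperones are filled in both genotypes, and Psmb1 and Psmd5 lie left of 0 in both, although under the median-of-ratios scaling Psmb1 lies right of 0 in both and Psmd5 in the knockout.

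All 5 immunoproteasome genes rose with LPS in both genotypes, with a median log2 fold change of 0.57 in the knockout and 0.67 in wild type. Over all genes tested, 19.9% rose in the knockout and 24.8% in wild type. Psmb8 encodes the subunit that replaces Psmb5 (chr17:34197721-34201454, plus strand, GRCm38). Its level was 164, 206 and 149 FPKM in KO LPS and 158, 204 and 180 FPKM in WT LPS, against 113, 104 and 129 FPKM in KO PBS and 143, 115 and 123 FPKM in WT PBS. Every LPS library was above every PBS library. The log2 fold change was 0.57 ± 0.15 (SE) in the knockout (limma, adjusted p = 0.00899) and 0.50 ± 0.15 in wild type (adjusted p = 0.0145). The wild-type call was lost without WT LPS replicate 2, with an adjusted p of 0.0618.

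Psmb9 encodes the subunit that replaces Psmb6 (chr17:34181987-34187764, minus strand). It was at 40.0, 57.2 and 38.9 FPKM in KO LPS and 45.0, 61.7 and 50.5 FPKM in WT LPS, against 21.3, 21.0 and 25.9 FPKM in KO PBS and 31.9, 31.3 and 33.8 FPKM in WT PBS. The groups of a genotype did not overlap. The log2 fold change was 0.95 ± 0.16 in the knockout (limma, adjusted p = 0.000558) and 0.67 ± 0.16 in wild type (adjusted p = 0.00364), or 2.0-fold and 1.62-fold between the group means. Psmb9 overlaps Tap1, a gene of the peptide transporter, in the annotation, and the use of strand is not given in the sources used here. Tap1 rose by 1.50 ± 0.22 in the knockout and 1.55 ± 0.22 in wild type on the same scale (adjusted p = 0.000229 and 0.000126), and its part in the Psmb9 values was not tested.

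Psmb10 encodes the subunit that replaces Psmb7 (chr8:105935735-105938444, minus strand). Its level was 40.6, 50.7 and 39.4 FPKM in KO LPS and 45.1, 51.7 and 46.1 FPKM in WT LPS, against 27.9, 29.9 and 33.5 FPKM in KO PBS and 30.8, 30.6 and 27.6 FPKM in WT PBS. LPS and PBS libraries did not overlap in either genotype. The log2 fold change was 0.50 ± 0.12 in the knockout (limma, adjusted p = 0.0043) and 0.66 ± 0.12 in wild type (adjusted p = 0.000547).

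Psme1 and Psme2 encode the alpha and beta chains of the PA28 cap, which opens the 20S core without a need for ubiquitin. Both genes lie close together on chr14 (55578123-55581529 on the plus strand and 55587441-55591113 on the minus strand). Psme1 was at 178, 210 and 146 FPKM in KO LPS and 179, 228 and 219 FPKM in WT LPS, against 117, 122 and 132 FPKM in KO PBS and 144, 113 and 119 FPKM in WT PBS. Every LPS library of a genotype was above its PBS libraries, and the log2 fold change was 0.50 ± 0.16 in the knockout (limma, adjusted p = 0.0174) and 0.73 ± 0.16 in wild type (adjusted p = 0.00171). The knockout call was lost without KO LPS replicate 2 (adjusted p = 0.0758) or without KO PBS replicate 1 (adjusted p = 0.0606). Psme2 was at 147, 179 and 130 FPKM in KO LPS and 140, 175 and 172 FPKM in WT LPS, against 73.3, 81.1 and 92.0 FPKM in KO PBS and 87.3, 84.9 and 57.4 FPKM in WT PBS. The difference between treatments exceeded the spread within every group, and the log2 fold change was 0.87 ± 0.18 in the knockout (limma, adjusted p = 0.002) and 1.09 ± 0.18 in wild type (adjusted p = 0.000341).

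Psme2b, an intronless copy of Psme2 on chr11 (48945354-48946190, minus strand), was listed at 67.0, 74.2 and 59.5 FPKM in KO LPS and 71.3, 87.8 and 82.7 FPKM in WT LPS, against 40.9, 44.6 and 51.7 FPKM in KO PBS and 43.6, 43.9 and 38.9 FPKM in WT PBS. Its log2 fold change was 0.54 ± 0.13 in the knockout (limma, adjusted p = 0.00404) and 0.91 ± 0.13 in wild type (adjusted p = 0.0001). Its transcript is 99.4% identical to that of Psme2 over 794 aligned bases, so the division of reads between both genes is uncertain and Psme2b is no separate observation. The Psme2b value was 0.442 ± 0.0241 of the Psme2 value in KO LPS, 0.497 ± 0.0152 in WT LPS, 0.557 ± 0.00623 in KO PBS and 0.565 ± 0.0980 in WT PBS (SD, n = 3 each).

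**Figure D3:**
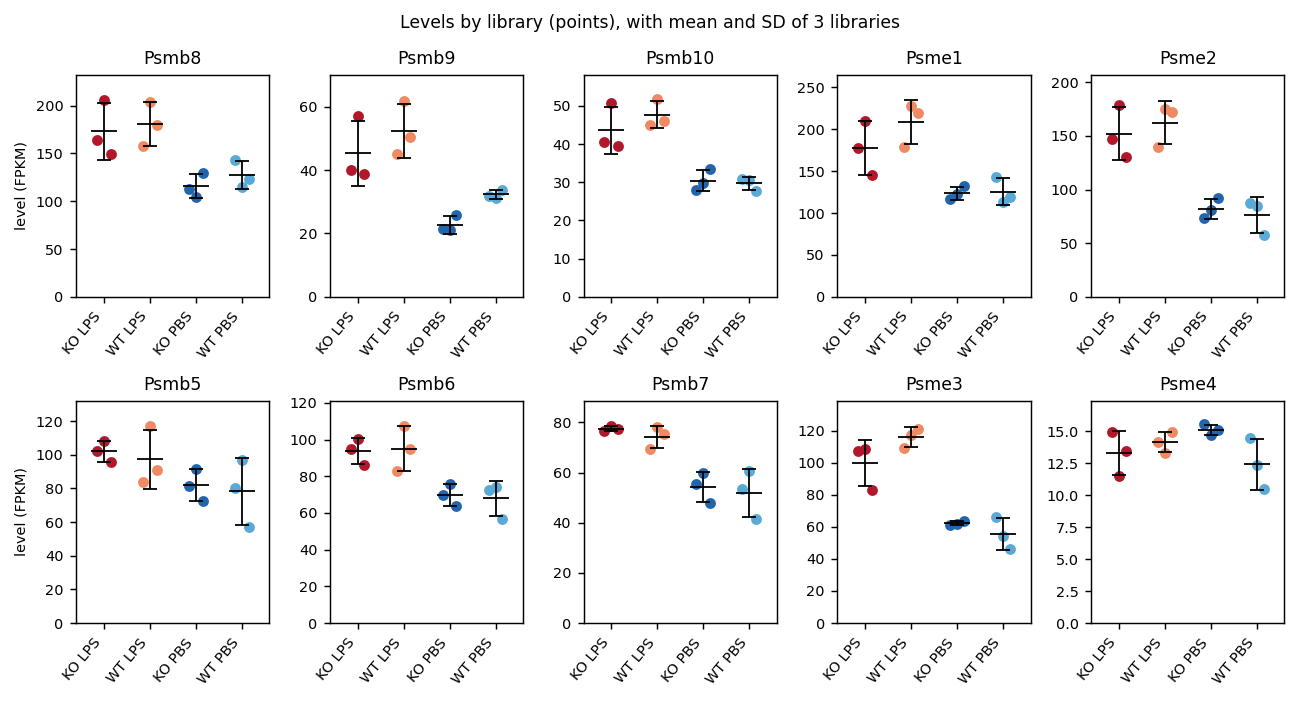
Level in FPKM (vertical axes from 0) of the 5 immunoproteasome genes, the 3 constitutive catalytic subunits and the activators Psme3 and Psme4 in each library (points), with the mean and SD of 3 libraries per group (bars), for KO LPS, WT LPS, KO PBS and WT PBS from left to right. In the immunoproteasome panels all 6 LPS points lie above all 6 PBS points, while in the Psme4 panel the groups overlap.

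The log2 fold changes of the 3 constitutive catalytic subunits ran from 0.32 to 0.51 in the knockout and from 0.33 to 0.52 in wild type. Those of their counterparts Psmb8, Psmb9 and Psmb10 ran from 0.50 to 0.95 in the knockout and from 0.50 to 0.67 in wild type. In both genotypes these ranges overlapped those of the constitutive subunits. With the cap genes Psme1 and Psme2 included, the 5 immunoproteasome genes ran from 0.50 to 0.95 and from 0.50 to 1.09. Psmb5, with the chymotrypsin-like site, was at 102, 108 and 95.9 FPKM in KO LPS and 83.7, 117 and 91.1 FPKM in WT LPS, against 81.7, 91.7 and 72.6 FPKM in KO PBS and 80.4, 97.0 and 57.3 FPKM in WT PBS. The wild-type groups overlapped, and the log2 fold change of 0.32 ± 0.19 in the knockout and 0.33 ± 0.19 in wild type did not pass the test (limma, adjusted p = 0.17 and 0.144). In wild type Psmb5 passed without WT PBS replicate 2, with 0.50 and an adjusted p of 0.0345, while without WT PBS replicate 3 its value was 0.12 (adjusted p = 0.52). Psmb6, with the caspase-like site, averaged 93.7 ± 7.03 FPKM in KO LPS and 95.1 ± 12.5 FPKM in WT LPS, against 69.8 ± 5.78 FPKM in KO PBS and 67.9 ± 9.46 FPKM in WT PBS (SD, n = 3 each). It rose by 0.42 ± 0.14 in the knockout (limma, adjusted p = 0.0223) and 0.48 ± 0.14 in wild type (adjusted p = 0.00947). The Psmb6 call was lost in the knockout without KO LPS replicate 1 (adjusted p = 0.0589), KO LPS replicate 2 (adjusted p = 0.0748), KO PBS replicate 1 (adjusted p = 0.0562) or KO PBS replicate 3 (adjusted p = 0.0842), and in both genotypes without the 2 erythroid-rich libraries (adjusted p = 0.0583 in the knockout and 0.0605 in wild type). Psmb7, with the trypsin-like site, averaged 77.5 ± 1.12 FPKM in KO LPS and 74.1 ± 4.49 FPKM in WT LPS, against 54.3 ± 5.87 FPKM in KO PBS and 51.8 ± 9.73 FPKM in WT PBS. It rose by 0.51 ± 0.14 in the knockout (limma, adjusted p = 0.00855) and 0.52 ± 0.14 in wild type (adjusted p = 0.00614).

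Ratios of an immunoproteasome subunit to its constitutive counterpart are given as a description, with no test. Psmb8 over Psmb5 was 1.69 ± 0.189 in KO LPS and 1.87 ± 0.120 in WT LPS, against 1.43 ± 0.324 in KO PBS and 1.70 ± 0.481 in WT PBS (SD, n = 3 each). The LPS libraries overlapped the PBS libraries of their genotype. Psmb9 over Psmb6 was 0.481 ± 0.0790 in KO LPS and 0.549 ± 0.0216 in WT LPS, against 0.329 ± 0.0671 in KO PBS and 0.485 ± 0.0944 in WT PBS. In the knockout its LPS libraries lay between 0.422 and 0.571 and its PBS libraries between 0.277 and 0.405, while in wild type the groups overlapped because WT PBS replicate 3 reached 0.593. Psmb10 over Psmb7 was 0.561 ± 0.0733 in KO LPS, 0.643 ± 0.0258 in WT LPS, 0.568 ± 0.112 in KO PBS and 0.583 ± 0.0809 in WT PBS. The immunoproteasome genes held 48.7% ± 3.07 of the FPKM of the 6 catalytic subunits in KO LPS and 51.3% ± 0.134 in WT LPS, against 45.1% ± 5.05 in KO PBS and 49.2% ± 5.46 in WT PBS.

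**Figure D4:**
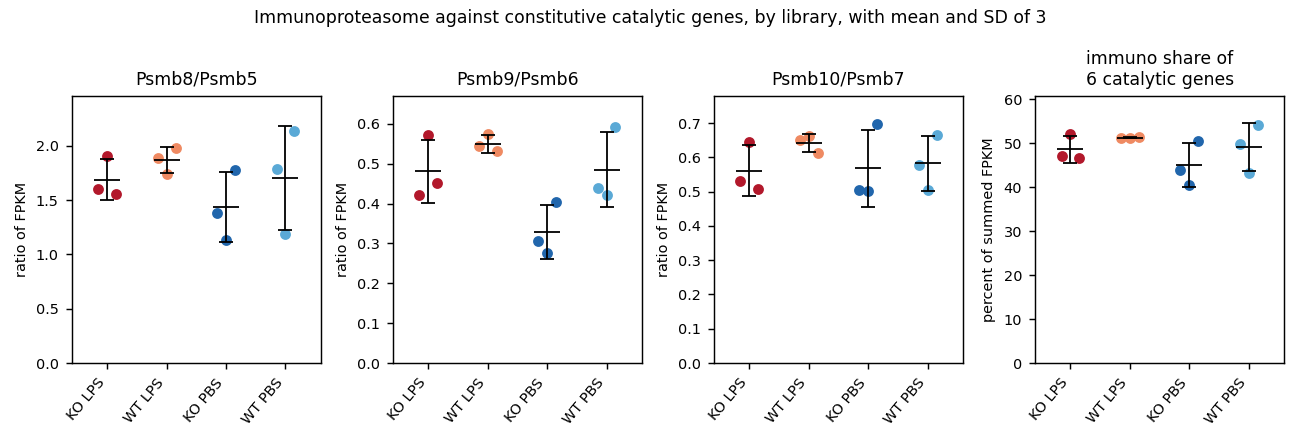
Ratio of the FPKM of each immunoproteasome subunit to that of its constitutive counterpart, and the percentage of immunoproteasome FPKM among the 6 catalytic subunits, in each library (points) with the mean and SD of 3 libraries (bars) and axes from 0. WT LPS points lie close together, at 51.2% to 51.4% in the percentage panel, while WT PBS points run between 43.3% and 54.2%.

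Among the remaining subunits of the 20S core, 5 of 7 tested alpha subunits rose in the knockout and 6 of 7 in wild type, and 4 of 7 constitutive beta subunits rose in each. Of all genes tested, 19.9% rose in the knockout and 24.8% in wild type. The alpha subunits form the outer rings that gate the core. Psma5 was at 78.6, 79.2 and 63.4 FPKM in KO LPS and 68.8, 83.4 and 80.0 FPKM in WT LPS, against 43.3, 49.2 and 41.9 FPKM in KO PBS and 46.5, 55.3 and 35.8 FPKM in WT PBS. The groups of both genotypes were apart, and the log2 fold change was 0.70 ± 0.16 in the knockout (limma, adjusted p = 0.00321) and 0.76 ± 0.16 in wild type (adjusted p = 0.00152). Psma4 averaged 123 ± 11.7 FPKM in KO LPS and 129 ± 11.3 FPKM in WT LPS, against 82.5 ± 4.40 FPKM in KO PBS and 76.7 ± 14.5 FPKM in WT PBS. It rose by 0.57 ± 0.15 in the knockout (limma, adjusted p = 0.00663) and 0.76 ± 0.15 in wild type (adjusted p = 0.000906). Over the whole alpha ring the log2 fold changes ran from 0.18 to 0.70 in the knockout and from 0.25 to 0.76 in wild type. Psmb1, a structural beta subunit without a proteolytic site, stood at the other end of the core, with 80.6, 89.0 and 72.5 FPKM in KO LPS and 77.5, 89.7 and 83.9 FPKM in WT LPS, against 80.9, 83.8 and 85.3 FPKM in KO PBS and 92.7, 79.6 and 88.0 FPKM in WT PBS. The groups overlapped, and its log2 fold change was -0.05 ± 0.11 in each genotype (limma, adjusted p = 0.714 in the knockout and 0.703 in wild type). The sign of the Psmb1 value turned under the median-of-ratios scaling, to 0.09 in the knockout and 0.07 in wild type.

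In the 19S cap, which recognises ubiquitin chains and unfolds the substrate, 3 of 6 ATPases (Psmc1 to Psmc6) rose in the knockout and 4 of 6 in wild type. The share of all genes tested that rose was 19.9% in the knockout and 24.8% in wild type. Their log2 fold changes ran from -0.05 to 0.45 in the knockout and from 0.19 to 0.63 in wild type. The knockout calls were Psmc2, Psmc4 and Psmc5, and all 3 were lost without KO LPS replicate 2, KO PBS replicate 1 or KO PBS replicate 3, which left 0 of 6. Of the 11 non-ATPase subunits 5 rose in the knockout and 9 in wild type, with a median log2 fold change of 0.33 in the knockout and 0.56 in wild type. The knockout count was 2 without KO LPS replicate 1 or KO PBS replicate 1, with Psmd7, Psmd11 and Psmd12 lost in both cases, and 3 without KO LPS replicate 2, KO PBS replicate 2 or KO PBS replicate 3. Over the 31 tested genes of the core and the cap 17 rose in the knockout, against 9 without KO LPS replicate 1, KO LPS replicate 2 or KO PBS replicate 1, and 10 without KO PBS replicate 3. Psmd3, a scaffold subunit of the lid, averaged 80.8 ± 3.51 FPKM in KO LPS and 82.7 ± 7.32 FPKM in WT LPS, against 57.3 ± 4.24 FPKM in KO PBS and 51.5 ± 9.84 FPKM in WT PBS (SD, n = 3 each). It rose by 0.49 ± 0.14 in the knockout (limma, adjusted p = 0.0117) and 0.69 ± 0.14 in wild type (adjusted p = 0.0013). Psmd14, the deubiquitinase that removes the chain before degradation, averaged 84.4 ± 10.8 FPKM in KO LPS and 95.9 ± 6.91 FPKM in WT LPS, against 66.5 ± 2.74 FPKM in KO PBS and 59.5 ± 10.9 FPKM in WT PBS. Its log2 fold change was 0.69 ± 0.14 in wild type (limma, adjusted p = 0.00153), and 0.33 ± 0.14 in the knockout, which did not pass the test (adjusted p = 0.0723) but passed without KO LPS replicate 3 (adjusted p = 0.0376) or without WT PBS replicate 3 (adjusted p = 0.0204). Psmd3, Psmd14 and Psmb1 were chosen for naming after their values were seen.

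Part of the wild-type change of the core and the cap rested on WT PBS replicate 3, which was the lowest of the 12 libraries for 29 of the 32 core and cap genes and for 2 of the 5 immunoproteasome genes. Without it the median wild-type log2 fold change of the 31 tested core and cap genes was 0.36, against 0.52 with all libraries, and 21 of them rose, against 23. The median of the immunoproteasome genes was then 0.70, against 0.67. The change of Psma6 became 0.46, against 0.69, that of Psmd1 0.32, against 0.56, that of Psmd6 0.24, against 0.43, that of Psmd7 0.40, against 0.63, that of Psmd11 0.39, against 0.64, and that of Psmc5 0.39, against 0.59. All 6 still passed the test. This library also had the highest summed level of the 7 markers of large peritoneal macrophages, 1265 FPKM, and of the 6 B cell markers, 1127 FPKM. The part of cell makeup in its low values was not tested.

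The genes that assemble the 20S core rose as a whole group. All 4 chaperone genes Psmg1 to Psmg4, whose products hold the alpha ring while it is built, passed the test in both genotypes. Among all genes tested, 19.9% rose in the knockout and 24.8% in wild type. Psmg2 was at 40.4, 42.8 and 29.4 FPKM in KO LPS and 34.5, 41.3 and 43.0 FPKM in WT LPS, against 22.0, 21.9 and 21.2 FPKM in KO PBS and 23.5, 14.9 and 19 FPKM in WT PBS. No LPS library overlapped a PBS library, and the log2 fold change was 0.75 ± 0.17 in the knockout (limma, adjusted p = 0.00363) and 1.03 ± 0.17 in wild type (adjusted p = 0.000352). Psmg4 was at 30.1, 38.3 and 23.3 FPKM in KO LPS and 22.6, 37.2 and 38.9 FPKM in WT LPS, against 16.0, 14.5 and 12.0 FPKM in KO PBS and 26.6, 17.1 and 15.2 FPKM in WT PBS. The knockout groups were apart and the wild-type groups overlapped, with a log2 fold change of 1.04 ± 0.25 in the knockout (limma, adjusted p = 0.0049) and 0.72 ± 0.25 in wild type (adjusted p = 0.0272). The wild-type call was lost without WT LPS replicate 2 (adjusted p = 0.0949), WT LPS replicate 3 (adjusted p = 0.103), WT PBS replicate 2 (adjusted p = 0.0751) or WT PBS replicate 3 (adjusted p = 0.0944). Psmg1 rose by 0.52 ± 0.16 in the knockout (limma, adjusted p = 0.0171) and 0.74 ± 0.16 in wild type (adjusted p = 0.00189). Its knockout call was lost without KO LPS replicate 1 (adjusted p = 0.0523), KO LPS replicate 2 (adjusted p = 0.0501) or KO PBS replicate 1 (adjusted p = 0.0706). Psmg3 rose by 0.60 ± 0.12 in the knockout (limma, adjusted p = 0.00205) and 0.55 ± 0.12 in wild type (adjusted p = 0.00263).

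Of the 3 chaperones of the 19S base, Psmd9 and Psmd10 rose in both genotypes and Psmd5 did not pass in either. Psmd9 was at 7.97, 7.94 and 6.33 FPKM in KO LPS and 7.17, 7.81 and 7.31 FPKM in WT LPS, against 6.14, 5.94 and 5.37 FPKM in KO PBS and 5.57, 6.19 and 4.64 FPKM in WT PBS. The groups were apart by a narrow margin in the knockout, and the log2 fold change was 0.30 ± 0.11 in the knockout (limma, adjusted p = 0.0426) and 0.39 ± 0.11 in wild type (adjusted p = 0.0108). The knockout call was lost under 11 of the alternatives run, with an adjusted p of up to 0.155. Psmd10, also known as gankyrin, was at 23.8, 24.0 and 34.0 FPKM in KO LPS and 23.5, 24.1 and 20 FPKM in WT LPS, against 17.2, 17.7 and 15.4 FPKM in KO PBS and 17.3, 17.5 and 12.7 FPKM in WT PBS. Its LPS and PBS libraries did not overlap, and the log2 fold change was 0.65 ± 0.16 in the knockout (limma, adjusted p = 0.00483) and 0.49 ± 0.16 in wild type (adjusted p = 0.0179). The wild-type call was lost without WT LPS replicate 1 (adjusted p = 0.0539), WT LPS replicate 2 (adjusted p = 0.0602) or WT PBS replicate 3 (adjusted p = 0.0677). Psmd5, at 14.3, 15.1 and 12.7 FPKM in KO LPS and 11.1, 14.1 and 11.2 FPKM in WT LPS, against 15.6, 17.0 and 13.5 FPKM in KO PBS and 14.7, 18.0 and 13.3 FPKM in WT PBS, had negative log2 fold changes of -0.12 ± 0.13 in the knockout and -0.31 ± 0.13 in wild type (limma, adjusted p = 0.465 and 0.0633). In wild type it passed as lower without WT LPS replicate 2 (adjusted p = 0.0277), without WT PBS replicate 3 (adjusted p = 0.0288) and with the replicate number as a block (adjusted p = 0.0125). In the knockout its value was 0.01 under the median-of-ratios scaling.

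The activators outside the immunoproteasome differed from each other. Psme3 encodes the gamma chain of PA28, which forms a cap in the nucleus and is not known for interferon induction (chr11:101316213-101323537, plus strand). It was at 107, 109 and 83.0 FPKM in KO LPS and 109, 117 and 121 FPKM in WT LPS, against 61.2, 61.8 and 63.5 FPKM in KO PBS and 66.0, 54.2 and 46.3 FPKM in WT PBS. All LPS libraries lay above all PBS libraries, with a log2 fold change of 0.66 ± 0.14 in the knockout (limma, adjusted p = 0.00242) and 1.06 ± 0.14 in wild type (adjusted p = 8.12e-05). Psme4, the large single-chain activator PA200, was at 14.9, 11.5 and 13.5 FPKM in KO LPS and 14.2, 13.3 and 14.9 FPKM in WT LPS, against 15.5, 14.7 and 15.1 FPKM in KO PBS and 14.4, 12.3 and 10.5 FPKM in WT PBS. Both pairs of groups overlapped, and the log2 fold changes of -0.18 ± 0.12 in the knockout and 0.18 ± 0.12 in wild type did not pass the test (limma, adjusted p = 0.23 and 0.203), although the wild-type value passed under the median-of-ratios scaling, at 0.30 (adjusted p = 0.0478). Psmf1, an inhibitor of the 20S core in isolated preparations, averaged 7.90 ± 1.34 FPKM in KO LPS and 9.21 ± 0.159 FPKM in WT LPS, against 6.38 ± 0.167 FPKM in KO PBS and 7.07 ± 1.42 FPKM in WT PBS. Its log2 fold change was 0.36 ± 0.14 in wild type (limma, adjusted p = 0.0412), and 0.26 ± 0.14 in the knockout (adjusted p = 0.134), where it passed without KO LPS replicate 3 (adjusted p = 0.0314). The wild-type call was lost under 12 of the alternatives run, and the change became 0.21 without WT PBS replicate 2.

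Psmc3ip, the recombination factor taken in by its symbol, was at 1.50, 3.24 and 1.51 FPKM in KO LPS and 1.46, 2.85 and 1.79 FPKM in WT LPS, against 0.608, 0.571 and 0.435 FPKM in KO PBS and 1.39, 0.617 and 0.745 FPKM in WT PBS. Its log2 fold change was 0.96 ± 0.23 in the knockout (limma, adjusted p = 0.00481) and 0.66 ± 0.23 in wild type (adjusted p = 0.0278). At a level this low the change depended on the pseudocount, and with 0.1 in place of 1 FPKM it was 1.69 in the knockout and 1.09 in wild type. The wild-type call was lost without WT LPS replicate 2 (adjusted p = 0.119), WT PBS replicate 2 (adjusted p = 0.0876) or WT PBS replicate 3 (adjusted p = 0.0692).

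Under LPS no proteasome gene differed between the genotypes by the test over all genes. Of the 48 tested members 0 passed the threshold between KO LPS and WT LPS, where 0.0% of the 9841 genes did so (limma), and 0 members had an unadjusted p under 0.05, against 744 of all genes. The log2 differences of the members ran from -0.31 to 0.25 with a median of -0.02. The standard errors of single members were 0.11 to 0.25, so differences of this size could not be resolved with 3 libraries a group. All 5 immunoproteasome genes had negative values, namely -0.07 ± 0.15 for Psmb8, -0.21 ± 0.16 for Psmb9, -0.13 ± 0.12 for Psmb10, -0.24 ± 0.16 for Psme1 and -0.10 ± 0.18 for Psme2 (limma, adjusted p = 0.729 to 0.939). The groups did not overlap for 3 members, all lower in the knockout (Psmd8, Psme3 and Psmf1), where 10.4% of all genes were apart in this direction and 5.03% in the other. Psmd8, a lid subunit of the 19S cap, was at 96.0, 81.0 and 75.7 FPKM in KO LPS, against 97.5, 107 and 108 FPKM in WT LPS, a log2 difference of -0.31 ± 0.14 (adjusted p = 0.666).

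Without LPS, 0 members passed the threshold between KO PBS and WT PBS (limma), where 0.0203% of all genes were higher and 0.0915% lower, and 4 of 48 members had an unadjusted p under 0.05, against 897 of the 9841 genes. These were Psma6, Psmd6 and Psme4, higher in the knockout, and Psmb9, lower. The 2 groups did not overlap for Psmd6 and Psme4, which were higher, where 6.04% of all genes were apart, and for Psma7, Psmb9 and Psmc3ip, which were lower, where 7.34% were. Psmb9 was at 21.3, 21.0 and 25.9 FPKM in KO PBS, against 31.9, 31.3 and 33.8 FPKM in WT PBS, a log2 difference of -0.49 ± 0.16 that failed the correction over all genes (limma, adjusted p = 0.386, and 0.265 to 0.928 over the alternatives). Psmb8, which lies near it on chr17, differed by -0.14 ± 0.15 (limma, adjusted p = 0.794), and the overlapping Tap1 by -0.31 ± 0.22 (adjusted p = 0.668). Of the 48 members 38 had a positive log2 difference, with a median of 0.11. Without WT PBS replicate 3 that median was -0.007, so the direction of the members as a group rested on this library.

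The difference between the genotypes in the LPS response, tested as an interaction, passed the threshold for 0 members (limma), where 0.0406% of all genes passed, and 0 members had an unadjusted p under 0.05. A negative value means a lower log2 fold change with LPS in the knockout than in wild type. The difference was negative for 38 of 48 members, with a median of -0.14. That median was 0.0006 without WT PBS replicate 3. The largest values were -0.52 ± 0.26 for Psma6, -0.43 ± 0.20 for Psmd8, -0.40 ± 0.20 for Psme3, -0.38 ± 0.18 for Psme2b and -0.36 ± 0.17 for Psme4 (adjusted p = 0.526 to 0.543). Psma6, an alpha subunit, was at 219, 204 and 225 FPKM in KO LPS and 217, 227 and 207 FPKM in WT LPS, against 172, 223 and 181 FPKM in KO PBS and 173, 144 and 96.4 FPKM in WT PBS. Its LPS levels overlapped between the genotypes, and among its PBS levels WT PBS replicate 3 was lowest, without which the interaction was -0.28. The 3 genotype comparisons share libraries with each other and with the LPS comparisons, so their values are not independent.

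The median correlation over libraries was higher within the core and cap genes, and within the immunoproteasome genes, than between both sets. Over the 12 libraries the median Pearson correlation between log2 levels was 0.873 for the 465 pairs among 31 core and cap genes, 0.933 for the 10 pairs among the immunoproteasome genes and 0.762 for the 155 pairs between both sets. After the group means were taken out, the medians were 0.808, 0.779 and 0.421 in the same order. These are descriptions, since all genes share the scaling of their library and the libraries differ in the RNA of cell type markers. WT PBS replicate 3 was the lowest of the 12 libraries for 29 of the 32 core and cap genes and 2 of the 5 immunoproteasome genes. Correlations without this library, or among other genes, were not computed.

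Genes that work with the proteasome were set beside the members. Of 12 genes for class I peptide loading, 6 rose with LPS in the knockout and 6 in wild type, and 0 fell. Of all genes tested, 19.9% were higher and 33.3% lower in the knockout, and 24.8% higher and 37.4% lower in wild type. Beside Tap1, they included Nlrc5, a transactivator of class I genes, which rose by 1.15 ± 0.21 in the knockout and 1.34 ± 0.21 in wild type (limma, adjusted p = 0.000925 and 0.000242). Erap1, which trims peptides in the endoplasmic reticulum, rose by 0.46 ± 0.12 in the knockout and 0.71 ± 0.12 in wild type (adjusted p = 0.00769 and 0.00043). The transporter chain Tap2 rose by 0.52 ± 0.14 in the knockout and 0.50 ± 0.14 in wild type (adjusted p = 0.00809 and 0.00785). In wild type 4 of the 12 had negative values, among them the class I heavy chains H2-K1 at -0.47 ± 0.25 and H2-D1 at -0.28 ± 0.16 (adjusted p = 0.118 and 0.152). The light chain gene B2m had 0.36 ± 0.14 in the knockout, a call (adjusted p = 0.0437) that was lost under 10 of the alternatives run, and 0.06 ± 0.14 in wild type (adjusted p = 0.748). H2-K1, H2-D1 and B2m were chosen for naming after their values were seen.

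Of 11 genes outside the Psm symbols whose proteins belong to or act on the proteasome, 4 rose and 1 fell in the knockout. In wild type 6 rose and 2 fell. Among all genes 19.9% were higher and 33.3% lower in the knockout, and 24.8% and 37.4% in wild type. Txnl1, a redox protein bound to the 19S cap, rose by 0.56 ± 0.13 in the knockout and 0.57 ± 0.13 in wild type (limma, adjusted p = 0.00444 and 0.00313). Uchl5, a deubiquitinase of the cap, rose by 0.55 ± 0.11 in the knockout and 0.63 ± 0.11 in wild type (adjusted p = 0.00143 and 0.000455). Pomp, the chaperone that matures the 20S core, was at 129, 142 and 127 FPKM in KO LPS and 124, 155 and 130 FPKM in WT LPS, against 99.6, 99.3 and 91.5 FPKM in KO PBS and 96.7, 115 and 93.0 FPKM in WT PBS, with a log2 fold change of 0.45 ± 0.12 in the knockout and 0.42 ± 0.12 in wild type (adjusted p = 0.00893 and 0.0105). Akirin2, which carries proteasomes into the nucleus, fell by 0.38 on the log2 scale in the knockout and by 0.44 in wild type (SE 0.09 each, adjusted p = 0.0043 and 0.00121), and by 0.24 in the knockout under the median-of-ratios scaling. Shfm1 passed as lower in wild type, with a log2 fold change of -0.30. That call was lost under 9 of the alternatives run (limma, adjusted p of up to 0.204). Shfm1 was chosen for naming after its values were seen.

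Of 13 ubiquitin and shuttle genes, 12 were tested, of which 2 rose and 1 fell in the knockout, and 4 rose and 1 fell in wild type. Over all genes 19.9% rose and 33.3% fell in the knockout, and 24.8% rose and 37.4% fell in wild type. Ubb, a polyubiquitin gene, was at 113, 188 and 119 FPKM in KO LPS and 54.7, 151 and 129 FPKM in WT LPS, against 108, 51.3 and 46.9 FPKM in KO PBS and 164, 102 and 158 FPKM in WT PBS. The knockout groups were apart by a narrow margin and the wild-type groups overlapped, and the log2 fold change was 1.08 ± 0.40 in the knockout (limma, adjusted p = 0.0411) and -0.43 ± 0.40 in wild type (adjusted p = 0.375). The knockout call was lost without KO LPS replicate 2 (adjusted p = 0.146) or KO PBS replicate 2 (adjusted p = 0.126) and under 8 alternatives in all. The difference between the genotypes, 1.51 ± 0.57, did not pass the test (adjusted p = 0.457). Rad23b, a shuttle factor for ubiquitinated proteins, rose in wild type by 0.63 ± 0.12 (adjusted p = 0.000762) and had 0.26 ± 0.12 in the knockout (adjusted p = 0.0872). The shuttle gene Ubqln2 fell by 0.45 in the knockout and by 0.68 in wild type (SE 0.08 each, adjusted p = 0.000675 and 3.24e-05).

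Of 11 transcription factors and other regulators known to act on proteasome genes, 4 rose and 2 fell in the knockout, and 6 rose and 4 fell in wild type, beside 19.9% and 33.3% of all genes in the knockout and 24.8% and 37.4% in wild type. Irf1, an interferon regulatory factor that binds ISRE motifs, was at 74.6, 164 and 101 FPKM in KO LPS and 139, 150 and 173 FPKM in WT LPS, against 30.0, 25.2 and 29.9 FPKM in KO PBS and 41.4, 70.0 and 36.7 FPKM in WT PBS. The LPS libraries lay above the PBS libraries throughout, with a log2 fold change of 1.89 ± 0.28 in the knockout and 1.67 ± 0.28 in wild type (limma, adjusted p = 0.000219 and 0.000337). Ifngr1, a chain of the interferon gamma receptor, fell by 0.54 in the knockout and by 1.06 in wild type (SE 0.14 each, adjusted p = 0.00597 and 5.98e-05). Nfe2l2, the stress factor that binds ARE motifs, fell by 0.90 in wild type (SE 0.19, adjusted p = 0.00191) and had a log2 fold change of -0.05 ± 0.19 in the knockout (adjusted p = 0.842). The difference between the genotypes was 0.85 ± 0.27 and did not pass the test (adjusted p = 0.393).

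The RNA of cell type markers differed between the treatments as well. The 8 neutrophil markers summed to 736 to 2694 FPKM in KO LPS and 188 to 299 FPKM in WT LPS, against 1358 to 3174 FPKM in KO PBS and 2120 to 3342 FPKM in WT PBS, and 3 of 8 fell with LPS in the knockout and 7 of 8 in wild type, where 33.3% and 37.4% of all genes fell. The 6 B cell markers summed to 145 to 253 FPKM in KO LPS and 240 to 342 FPKM in WT LPS, against 661 to 910 FPKM in KO PBS and 537 to 1127 FPKM in WT PBS, with 5 of 6 lower in each genotype. The 5 monocyte markers summed to 56.7 to 208 FPKM in KO LPS and 46.1 to 56.9 FPKM in WT LPS, against 271 to 395 FPKM in KO PBS and 269 to 704 FPKM in WT PBS. Of these, 3 of 5 were lower with LPS in the knockout and 5 of 5 in wild type. For the 7 markers of large peritoneal macrophages, the resident cells of the cavity, the sums were 683 to 691 FPKM in KO LPS and 576 to 767 FPKM in WT LPS, against 709 to 1085 FPKM in KO PBS and 656 to 1265 FPKM in WT PBS. Taken singly, 6 of the 7 were lower with LPS and 1 higher in the knockout. In wild type 5 were lower and 1 higher. The 6 T cell markers summed to 6.95 to 14.7 FPKM in KO LPS and 12.0 to 14.2 FPKM in WT LPS, against 14.5 to 20.9 FPKM in KO PBS and 31.0 to 43.0 FPKM in WT PBS, with 2 of 6 lower in the knockout and 6 of 6 in wild type. The 5 dendritic cell markers summed to 29.0 to 73.2 FPKM in KO LPS and 46.3 to 50.7 FPKM in WT LPS, against 15.2 to 29.5 FPKM in KO PBS and 23.0 to 40.2 FPKM in WT PBS. Nearly all of this was Ccr7, a chemokine receptor of migrating dendritic cells and of lymphocytes, which rose by 1.38 ± 0.33 in the knockout (limma, adjusted p = 0.00486) and had 0.78 ± 0.33 in wild type (adjusted p = 0.0598). The dendritic cell genes Flt3, Zbtb46, Xcr1 and Clec9a and the 4 mesothelial markers were below 1 FPKM on average. In bulk RNA of mixed cells, fewer cells of a type and less RNA per cell cannot be told apart, and the part of cell makeup in the proteasome values was not tested.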

How the data were processed

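RNA of peritoneal lavage cells was sequenced by a Solexa protocol, per the labels' protocols. The submitters' processing notes list TopHat, Cufflinks, HTSeq and DESeq without versions or roles, and the build GRCm38. Knockout libraries have titles that mention wild-type mice, but their descriptions and characteristics give the knockout, which was followed. The authors deposited 1 table per library. Its unit is not stated, and the deposited values were taken as FPKM because they are not whole, have no common sum and because Cufflinks is named, so the number of reads behind a value is unknown. Of 21878 rows, 27 with symbols turned into dates were left out.

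Values were taken as log2(FPKM + 1). Genes averaging 1 FPKM or more (9841, or 45.0%) were fitted in limma 3.58.1 (R 4.3.3, statmod 1.5.0) with 4 group means over 12 libraries, 8 residual degrees of freedom, and trended, robust variance shrinkage. The 5 contrasts were adjusted by Benjamini-Hochberg over all genes at 0.05, two-sided. Fold changes on this scale understate changes of low genes. Exact permutation of 3 against 3 libraries cannot go below p = 0.1 and was not used. Nothing says that libraries came from separate mice, so the p-values rest on a spread between libraries that may be technical. Same-numbered libraries of different groups had deviations that correlated between -0.254 and 0.194, so the numbers were not taken as pairs. The fit was tested on simulated data.

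The genes described and the lists were chosen with earlier results of these data known. Named were the immunoproteasome genes, their counterparts, Psme3, Psme4, Psmf1, members near 0, up to 8 called members without overlap per contrast, the 5 largest interactions and up to 4 genes per pathway list. Of the regulators, 1 gene is not reported by name here. Gene positions are from GENCODE on GRCm38, where 12 of 50 members overlap another listed gene, among them Psme1, Psmb7, Psmc3, Psmd1, Psmd13, Psma2 and Psma4. Copies were aligned with Biopython 1.88, and figures drawn in Python 3.11.15 with matplotlib 3.10.9. Alternatives covered the pseudocount, the filter, 2 other scalings, the variance model, the replicate block, the groups in the fit, and leaving out single libraries or the 2 richest in erythroid RNA.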

Additional observations from a re-analysis of the deposited data

How the results depend on the processing

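Alternatives were run for 152 changes, namely both LPS changes of every tested member, each other call among members and listed genes, the Psmb9 difference between the PBS groups and 6 uncalled interactions. Of their 3034 values 2765 kept direction and side of the threshold, 221 no longer passed, 33 passed where the main value had not, and 15 changed sign, none of them a call. Under median-of-ratios scaling the knockout values of Psmb1, Psmc1, Psmd13, Psmd5 and Psmd8 became 0.092, 0.091, 0.129, 0.013 and 0.074, and Psmb1 became 0.072 in wild type. Psmd13 was 0.0053 in the knockout under upper-quartile scaling. Leaving out single libraries, Psmb1 ran from -0.123 to 0.023 in the knockout and from -0.111 to 0.0024 in wild type, and in the knockout Psmc1 ran from -0.0993 to 0.0166, Psmd8 from -0.165 to 0.0202 and Psmd13 from -0.0668 to 0.0449. Members called for LPS in the knockout numbered 31, and 20 to 35 when single libraries were left out. They numbered 19 without the 2 libraries richest in erythroid RNA, 28 without the filter on the mean, 31 with a pseudocount of 0.1, 36 under median-of-ratios scaling, 33 under upper-quartile scaling and 34 with the compared groups alone. For LPS in wild type there were 38, and 27 to 38 when single libraries were left out, 24 without the erythroid-rich libraries, 36 without the filter, 38 with a pseudocount of 0.1, 44 under median-of-ratios scaling, 39 under upper-quartile scaling and 30 with the compared groups alone. Between genotypes and for the interaction the limma count of members was 0 under every alternative run. The causes of these shifts were not tested, beyond the fewer libraries where some were left out. Calls held under all alternatives run for 18 of 31 members in the knockout and 23 of 38 in wild type, among them Psmb9, Psmb10 and Psme2 in both.

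With the replicate number as a block, 31 members were called in the knockout and 39 in wild type. The numbers do not show that libraries were paired. With 3 libraries a group and no read numbers, small differences and low genes remain poorly resolved.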
